A study of Mus musculus with 18 samples.

Results

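The miRNAs mmu-miR-15a, mmu-miR-15b, mmu-miR-16, mmu-miR-195 and mmu-miR-497 (below without the prefix) form a seed family with 5 of the 566 mouse entries on an Agilent miRNA array. They were chosen as the array probes whose annotated name is exactly one of these 5 miRNAs, which gave 13 of 1890 mouse probes. All 5 were bright enough to be tested, among 226 miRNAs in all. The cells were Neuro2A, a mouse neuroblastoma line, nucleofected with the TATA-binding protein (TBP) joined to GFP, a green fluorescent protein, and carrying 59 glutamines (59Q) or 16 glutamines (16Q). The 6 groups were 59Q at 24, 36 and 60 h and 16Q at 24, 36 and 60 h after nucleofection. Each had 3 biological replicates, with 1 array per replicate. All 18 samples come from 1 cell line and carry a transfected TBP fusion, and no untransfected sample was analysed here. The labels do not say whether replicates came from separate cultures, so p-values refer only to the spread among these samples, which may be technical. RNA was taken from whole cultures, so fewer cells with a miRNA and less of it per cell cannot be told apart.

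A miRNA guides the Argonaute protein to messenger RNAs that pair with its seed, the bases near its 5′ end, and lowers their output. Members of this family share a seed and are known as repressors of cyclins, cyclin-dependent kinases and the survival factor BCL2, so that they restrain entry into the cell cycle and favour apoptosis. Expansion of the polyglutamine tract of TBP, a general transcription factor, causes the neurodegenerative disease spinocerebellar ataxia type 17.

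The mature sequences below show what the members have in common and where they part. They are RefSeq entries of GRCm38.p6, written 5′ to 3′, and the capitals mark the seed, bases 2 to 8. The newer RefSeq names are miR-195a-5p and miR-497a-5p for the array's miR-195 and miR-497.
miR-15a: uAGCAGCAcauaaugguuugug
miR-15b: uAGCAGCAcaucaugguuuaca
miR-16: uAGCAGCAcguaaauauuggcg
miR-195: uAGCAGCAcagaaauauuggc
miR-497: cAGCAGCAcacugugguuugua
miR-322: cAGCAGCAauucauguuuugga
miR-503: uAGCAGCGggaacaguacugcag
miR-103: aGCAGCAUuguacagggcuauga
miR-107: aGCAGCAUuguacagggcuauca

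The 5 members and miR-322, which is not among the 5 chosen, form a group of 6 with the identical seed AGCAGCA. The seed of miR-503 differs from it in its last base, and miR-103 and miR-107 carry the same letters shifted by 1 position. After the seed the members diverge. miR-16 and miR-195 differ at 2 of 21 positions and miR-15a and miR-15b at 4 of 22, whereas miR-16 and miR-497 differ at 11 of 22. Closely similar sequences may share signal on an array, and this was not tested.

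In the genome the members sit in pairs. miR-15a (chr14:61632075-61632096) and 1 copy of miR-16 (chr14:61631936-61631957) lie on the minus strand with 117 bases between the mature sequences, overlapping Dleu2, a long non-coding RNA gene. miR-15b (chr3:69009775-69009796) and the other copy of miR-16 (chr3:69009918-69009939) lie on the plus strand 121 bases apart, overlapping Smc4, which encodes a condensin subunit. miR-497 (chr11:70234730-70234751) and miR-195 (chr11:70235062-70235082) lie on the plus strand 310 bases apart. Because both loci of miR-16 give the same mature sequence, the array cannot tell them apart, and the miR-16 signal is a sum over them.

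Signals were divided by each array's own 75th percentile of bright probes and are given as log2 scaled signal, so that 0 is the level of that percentile. Levels of different miRNAs are not compared, because a probe's brightness also depends on its sequence. The share of probe spots well above background ran from 19.7% to 37.3% per array, and precision is limited by the number of arrays. Array pairs within a group correlated as low as 0.653, while the highest correlation between arrays of different groups was 0.989. The arrays that stood farthest from the others were 16Q replicates 1 and 2 at 24 h, 59Q replicate 2 at 36 h and 59Q replicate 1 at 60 h, and values without these 4 arrays are given where they differ. The arrays lay on 3 slides: all 24 h arrays on the first, together with 16Q replicates 1 and 2 at 36 h, and 59Q replicates 2 and 3 at 60 h on the third, with the remaining arrays on the second. Of 8 neuronal markers on the array 4 could be tested. These were well above background on 18 arrays for miR-138, 14 for miR-153, 10 for miR-132 and 5 for miR-218. Of the others, miR-137 was well above background on 3 arrays, miR-124 on 1, and miR-9 and miR-129-5p on 0.

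miR-15a, miR-15b, miR-16 and miR-497 each had a probe well above background on all 18 arrays, and miR-195 on 14. Of the 13 probes, 12 were bright in every replicate of 1 or more groups and entered the means, and the one left out was a probe of miR-497 that was bright on 4 arrays. Probes of the same member moved together over the 18 arrays, with Pearson correlations of 0.845 to 0.961 for miR-15a, 0.985 for miR-15b, 0.955 to 0.993 for miR-16, 0.917 for miR-195 and 0.946 for miR-497. The passenger strands, which come from the other arm of the hairpin and are mostly degraded, were dim: miR-15a* was well above background on 3 arrays, miR-16* on 1 and miR-15b* on 0, and none could be tested.

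**Figure D1:**
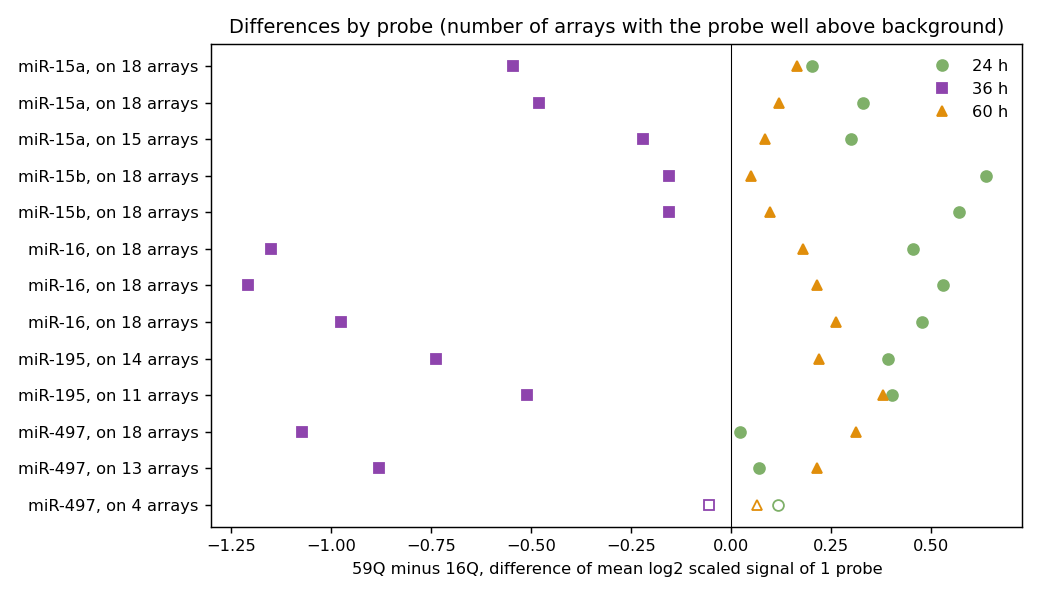
Difference between 59Q and 16Q in mean log2 scaled signal for each of the 13 family probes (rows, labelled with the number of arrays on which the probe was well above background) at 24 h (circles), 36 h (squares) and 60 h (triangles). The open symbols are the probe that was left out, and all 12 other probes lie below 0 at 36 h and above 0 at 24 and 60 h.

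No member of the family passed the test between 59Q and 16Q at any time. At 24 h and 60 h all 5 members had a higher mean in 59Q cells than in 16Q cells, at 36 h all 5 had a lower mean, and averaged over the times the differences lay between -0.22 and 0.17. The largest differences were at 36 h, for miR-16 and miR-497. The signs also depended on the processing, as given with each comparison.

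miR-16, which targets cyclin D1 and BCL2, had log2 scaled signals of 0.36, -0.81 and -0.28 in 59Q cells at 36 h, against 0.81, 0.82 and 0.97 in 16Q cells. Every 59Q array lay below every 16Q array. The difference was -1.11 ± 0.40 (limma, SE, n = 3 each), with a 95% interval of -1.95 to -0.27, and the p of 0.0125 became 0.235 after Benjamini-Hochberg adjustment over all 226 miRNAs. miR-16 ranked 12 by p among them. Replicates 2 and 3 of 59Q carried most of the gap, and 59Q replicate 2 is one of the arrays that stood apart.

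For miR-497, which shares a transcript with miR-195, the values at 36 h were -2.89, -3.86 and -3.63 in 59Q cells and -2.35, -2.55 and -2.56 in 16Q cells. The groups again did not overlap. The difference was -0.98 ± 0.39 (limma, SE), with an interval of -1.80 to -0.15 and an adjusted p of 0.257. In the exact permutation test of the construct labels at 36 h, miR-16 and miR-497 each gave p = 0.1 (two-sided), which is the smallest that 3 arrays against 3 allow.

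The other members overlapped at 36 h. miR-15a was -1.82, -2.43 and -2.07 in 59Q cells against -1.95, -1.55 and -1.57 in 16Q cells, a difference of -0.42 (interval -1.05 to 0.22). The values of miR-15b were -0.04, -1.63 and -1.01 in 59Q cells and -0.78, -0.88 and -0.54 in 16Q cells, a difference of -0.16 (interval -1.12 to 0.81). 59Q replicate 1 was the highest array of the 6 for miR-15b and 59Q replicate 2 the lowest. miR-195 was -3.33, -4.11 and -3.98 in 59Q cells against -3.66, -3.03 and -2.86 in 16Q cells, a difference of -0.62 (interval -1.59 to 0.34). Both miR-195 probes reached the lower limit set on the signal on some arrays, so its differences may be understated.

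The background at 36 h was itself shifted. The median difference of all 226 miRNAs was -0.19, against -0.62 for the family, and 22.6% of all miRNAs lay wholly lower in 59Q cells, so that 2 of 5 members is to be read against that share. By the adjusted p, 0 of 5 members and 0.442% of all miRNAs were called, which is 1 miRNA, miR-322. Without scaling between arrays the median of all miRNAs was 0.47, and miR-16 and miR-497 differed by -0.33 and -0.28 while miR-15a and miR-15b differed by 0.36 and 0.63. In the deposited table, also unscaled, miR-16 and miR-497 differed by -0.28 and -0.06 and miR-15a and miR-15b by 0.23 and 0.52. Relative to the median of all miRNAs the difference of miR-16 was -0.92 with scaling and -0.79 without it, and that of miR-497 was -0.78 with scaling and -0.74 without. With normexp background correction miR-16 and miR-497 differed by -0.87 and -0.62 while the median of all miRNAs was -0.36, so both lay nearer to it. In the deposited table that median was 0.31, and both lay nearer to it there too. Without the 4 arrays that stood apart, miR-16 differed by -0.83 (adjusted p = 0.129, limma) and miR-497 by -0.77, and miR-15b by 0.21. Within the second slide, which held 3 arrays of 59Q and 1 of 16Q at 36 h, the differences were -1.22 for miR-16 and -0.90 for miR-497, which are also the values with slide as a block. Leaving out 59Q replicate 1 at 60 h, an array outside this comparison that enters the shared estimate of spread, brought miR-497 at 36 h to an adjusted p of 0.0441 (limma) with the same difference, and the count of all miRNAs called to 10. With a floor 4 times higher, miR-497 differed by -0.07 at 36 h, so the size of its difference rests on signal below that floor.

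**Figure D2:**
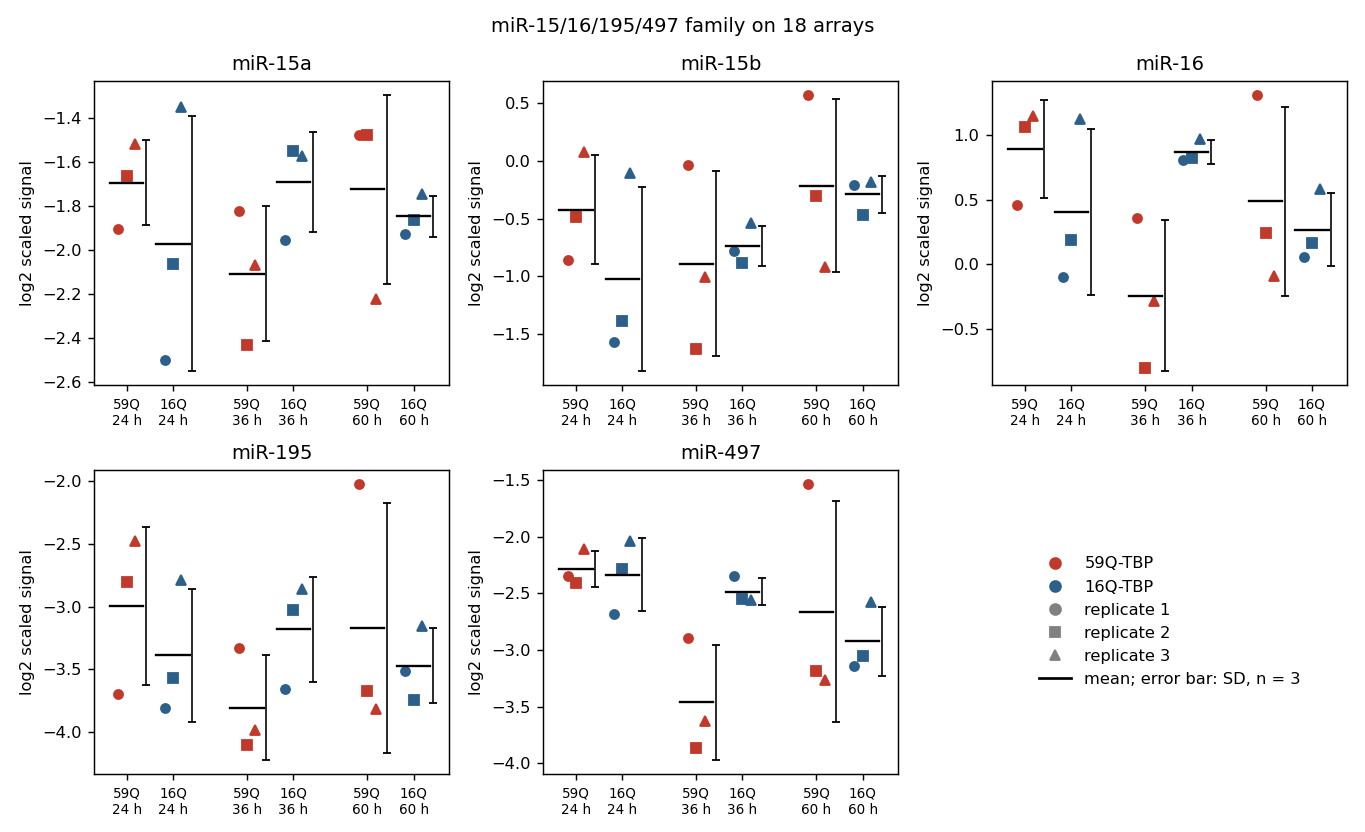
Log2 scaled signal (vertical axis) of each family member on the 18 arrays, by construct and time (red, 59Q, left of blue, 16Q, at each time); symbols are replicates 1 to 3, horizontal lines are means and error bars are SD (n = 3). For miR-16 and miR-497 the 59Q arrays at 36 h lie below all 16Q arrays at 36 h, and the 59Q arrays at 60 h are spread widely.

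At 24 h the groups overlapped for every member, while 6.19% of all miRNAs lay wholly higher in 59Q cells. miR-15b, the member with the largest difference at that time, was -0.86, -0.48 and 0.08 in 59Q cells and -1.57, -1.39 and -0.11 in 16Q cells, a difference of 0.60 ± 0.45 (limma, SE; adjusted p = 0.465). miR-16 was 0.46, 1.07 and 1.15 in 59Q cells against -0.10, 0.19 and 1.13 in 16Q cells, a difference of 0.49 (interval -0.35 to 1.33). 16Q replicate 3 was close to the 59Q arrays in both, and 16Q replicates 1 and 2 were the low ones. miR-15a, miR-195 and miR-497 differed by 0.28, 0.40 and 0.05. Of all miRNAs 76.1% had a higher mean in 59Q cells at 24 h, with a median of 0.25 against 0.40 for the family, and 0.442% were called, against 0 of 5 members. Without 16Q replicate 3 at 24 h, 50 miRNAs were called and again 0 of 5 members. Without the 4 arrays that stood apart that replicate is the only 16Q array left at 24 h, and the family differences set against it alone were -0.20 to -0.34. All 5 differences were also below 0 without scaling, where miR-16 differed by -0.22 and miR-15b by -0.11, and in the deposited table, where they differed by -0.16 and -0.03.

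At 60 h the 59Q group was spread widely. miR-497 was -1.53, -3.19 and -3.26 in 59Q cells and -3.14, -3.05 and -2.58 in 16Q cells, a difference of 0.26 (interval -0.56 to 1.09). miR-16 was 1.31, 0.24 and -0.09 in 59Q cells against 0.06, 0.16 and 0.59 in 16Q cells, a difference of 0.22 (interval -0.62 to 1.06). In both, 59Q replicate 1 was the highest array and stood alone. miR-15a, miR-15b and miR-195 differed by 0.12, 0.07 and 0.30, with adjusted p of 0.947 to 0.976 over the 5 members (limma). The count was 0 of 5 members, beside 0.442% of all miRNAs, and no member lay wholly higher in 59Q cells, beside 2.21% of all. Without 59Q replicate 1 all 5 differences were below 0, from -0.00185 for miR-15a to -0.32 for miR-15b. With slide as a block, or within the second slide, which held 59Q replicate 1 and all 16Q arrays, miR-497 differed by 1.39 (adjusted p = 0.0251, limma) and miR-16 by 1.04, so the 60 h values rest on that 1 array. The count over all miRNAs was 49 with slide as a block. With the percentile taken over all probes miR-15a differed by -0.03 and miR-15b by -0.08 at 60 h, and with normexp background correction miR-15a, miR-195 and miR-497 differed by -0.10, -0.20 and -0.13.

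Averaged over the times, the differences were -0.01 for miR-15a, 0.17 for miR-15b, -0.14 for miR-16, 0.02 for miR-195 and -0.22 for miR-497, all with an adjusted p of 0.999 (limma), beside 0.442% of all miRNAs called. The exact two-sided permutation of labels within times, over 8000 relabellings, gave p = 0.975, 0.532, 0.640, 0.932 and 0.404 in that order. The 95% intervals were widest for miR-15b, -0.38 to 0.73, and narrowest for miR-15a, -0.37 to 0.36. These signs also turned: without scaling miR-15a was at 0.21 and miR-16 at 0.07, with slide as a block miR-15a, miR-16 and miR-497 were at 0.04, 0.10 and 0.18, and without the 4 arrays miR-15b and miR-195 were at -0.14 and -0.32. Whether the difference depended on time was tested with a moderated F test, in which miR-16 had an adjusted p of 0.215 (limma), ranking 10 of 226. For this dependence 0 of 5 members and 0% of all miRNAs were called, and 50 miRNAs had an unadjusted p under 0.05. In that test miR-497 had an adjusted p of 0.0221 with slide as a block, and miR-16 had 0.0499 without 16Q replicate 3 at 24 h. The counts over all miRNAs were then 55 and 30. The value of miR-497 with slide as a block rests on 59Q replicate 1 at 60 h.

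**Figure D3:**
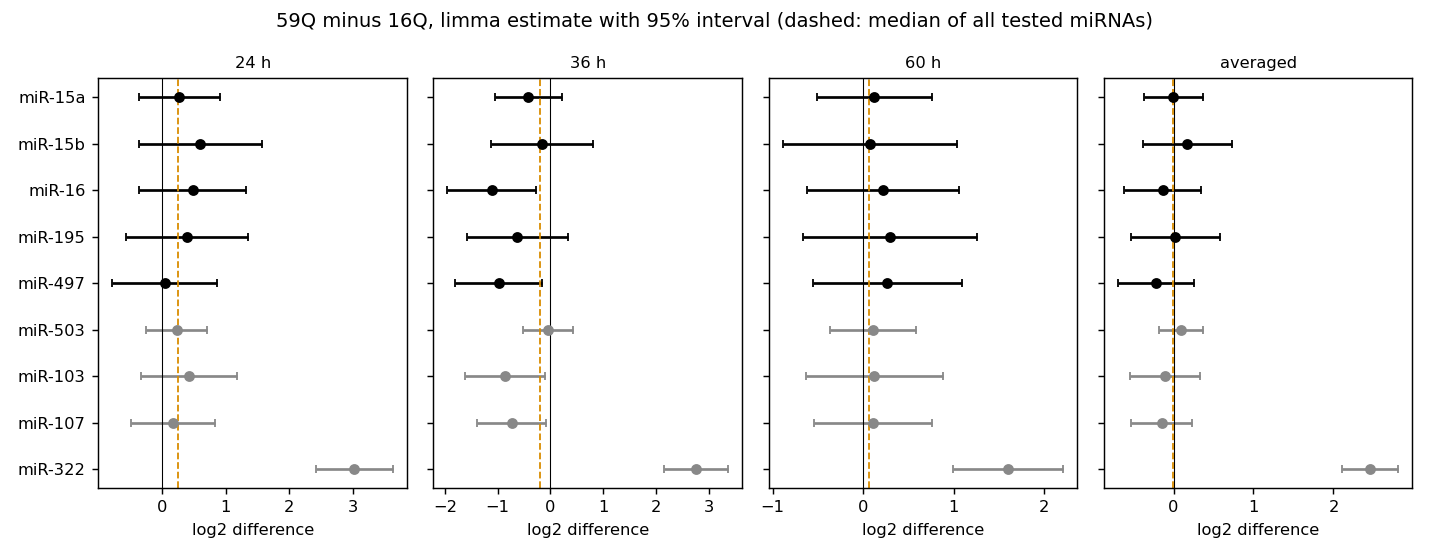
Difference between 59Q and 16Q in log2 scaled signal (horizontal axis) with its 95% interval at 24, 36 and 60 h and averaged over the times, for the 5 members (black) and for 4 miRNAs with related seeds (grey); dashed lines are the median of all 226 miRNAs. Intervals of the members include 0 except for miR-16 and miR-497 at 36 h, and miR-322 lies far to the right of 0 in every panel.

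Within 59Q cells, miR-16 and miR-497 were again the members with the largest differences between times. miR-16 averaged 0.89 ± 0.38 at 24 h, -0.24 ± 0.58 at 36 h and 0.49 ± 0.73 at 60 h (SD, n = 3 each). Its 36 h arrays lay below all 24 h arrays, a difference of -1.14 ± 0.40 (limma, SE; adjusted p = 0.119). miR-497 averaged -2.29 ± 0.16 at 24 h, -3.46 ± 0.51 at 36 h and -2.66 ± 0.98 at 60 h. Its 36 h arrays also lay below all 24 h arrays, a difference of -1.17 ± 0.39 (limma, SE; adjusted p = 0.111). miR-15a, miR-15b and miR-195 differed by -0.41, -0.47 and -0.81 between 36 h and 24 h, with overlapping arrays.

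For 36 h against 24 h in 59Q cells, 0 of 5 members and 0% of all miRNAs were called, while 64 miRNAs had an unadjusted p under 0.05. Of all miRNAs 24.8% lay wholly lower at 36 h, and the median of all was -0.26 against -0.81 for the family. Without 59Q replicate 1 at 36 h the adjusted p of limma was 0.0324 for miR-16 and 0.0317 for miR-497, and without 59Q replicate 1 at 60 h it was 0.0357 and 0.0116, but the calls over all miRNAs then numbered 63 and 32 in place of 0. The differences were smaller with normexp correction, at -0.93 for miR-16 and -0.66 for miR-497. They were -0.49 and -0.61 with scaling left out, and -0.45 and -0.26 in the deposited table, which is unscaled and holds the net signal. Under both of these unscaled settings miR-15a and miR-15b turned to differences above 0, at 0.21 and 0.18 without scaling. With a floor 4 times higher miR-497 differed by -0.17. All 59Q arrays at 24 h lay on the first slide and all at 36 h on the second, so within 59Q cells time and slide cannot be told apart. With slide as a block, the differences were -1.29 for miR-16 and -1.07 for miR-497. Only the 16Q group at 36 h lay on both of these slides. The adjustment between them thus rests on its replicate 3 against its replicates 1 and 2.

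At 60 h against 24 h in 59Q cells the members differed by -0.40 to 0.21, with 0 of 5 called beside 1.33% of all miRNAs. All 24 h arrays lay on the first slide and the 60 h arrays of 59Q on the other two, so time and slide cannot be told apart here. For miR-497 the difference was -0.37, with -0.94 (adjusted p = 0.0273, limma) and 43 miRNAs called without the 4 arrays that stood apart, but 0.87 with slide as a block and 0.22 in the deposited table. Slide as a block turned the sign of miR-15a, miR-16 and miR-195 as well, to 0.04, 0.26 and 0.49. The third slide held only 59Q replicates 2 and 3 at 60 h. With slide as a block the 59Q values at 60 h thus rest on replicate 1, which stood apart. The count over all miRNAs was 18 without 59Q replicate 1 at 60 h and 1 without replicate 2 or 3 of 59Q at 24 h or replicate 2 at 60 h.

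In 16Q cells at 36 h against 24 h the members differed by -0.15 to 0.46, and 0 of 5 members and 0% of all miRNAs were called. Without 16Q replicate 3 at 24 h, 8 miRNAs were called and 0 of them were members. The directions did not hold: without scaling miR-15a, miR-15b, miR-16 and miR-195 differed by -0.56, -0.56, -0.38 and -0.55, and these 4 were also below 0 in the deposited table and without the 4 arrays that stood apart.

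In 16Q cells at 60 h against 24 h, where 35.4% of all miRNAs were called and 31.9% lay wholly higher, the family had 0 of 5 of either. All 16Q arrays at 24 h lay on the first slide and all at 60 h on the second, so time and slide cannot be told apart within 16Q cells. The count of 80 miRNAs behind that share was 0 with slide as a block, 3 with normexp correction, 5 in the deposited table and 4 without the 4 arrays that stood apart. It was 13 and 6 without 16Q replicate 1 or 2 at 24 h, and 19 and 7 without 16Q replicate 1 or 2 at 60 h. miR-15b was -0.21, -0.47 and -0.18 at 60 h and -1.57, -1.39 and -0.11 at 24 h, a difference of 0.73 ± 0.45 (limma, SE; adjusted p = 0.220). Replicate 3 at 24 h alone brought the groups to overlap, and without it the difference was 1.19 (adjusted p = 0.0423, limma). Set against that replicate alone at 24 h, which is what leaving out the 4 arrays does, it was -0.18, and it was -0.19 without scaling and -0.03 in the deposited table. miR-497 was -3.14, -3.05 and -2.58 at 60 h and -2.68, -2.28 and -2.04 at 24 h, a difference of -0.59 (interval -1.41 to 0.23). miR-15a, miR-16 and miR-195 differed by 0.12, -0.14 and -0.08. The median of all miRNAs was 0.16 in this comparison.

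**Figure D4:**
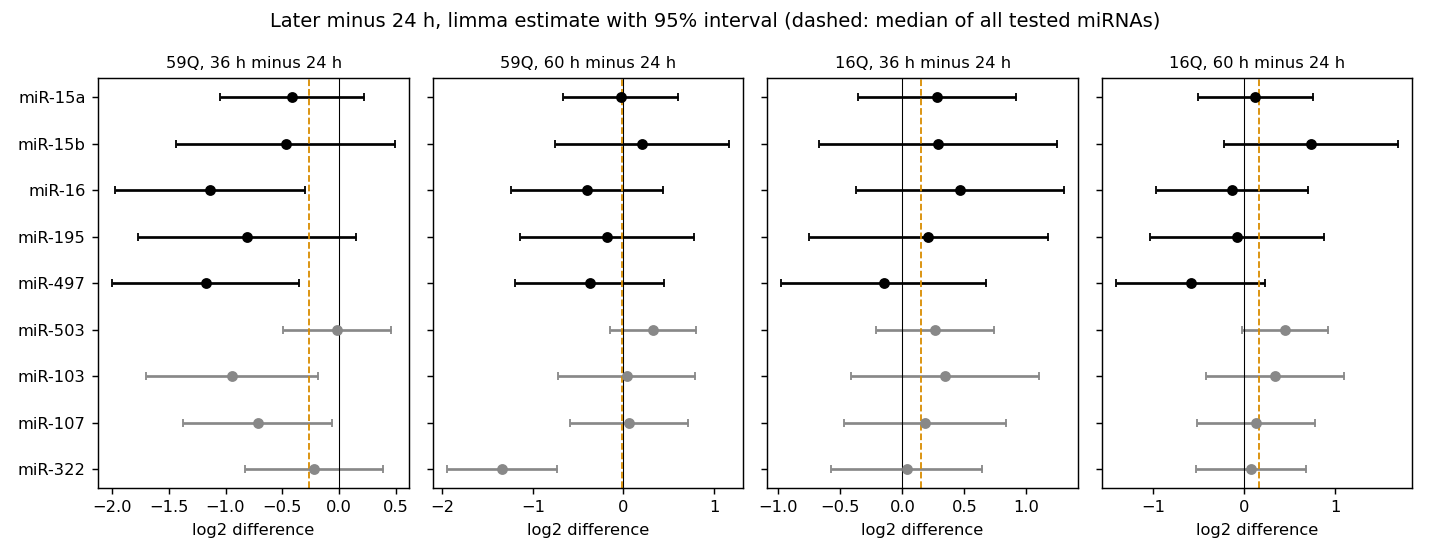
Difference in log2 scaled signal from 24 h (horizontal axis) with its 95% interval, at 36 h and 60 h in 59Q cells and at 36 h and 60 h in 16Q cells, for the 5 members (black) and 4 related miRNAs (grey); dashed lines are the median of all 226 miRNAs. The intervals of miR-16 and miR-497 exclude 0 at 36 h in 59Q cells, before adjustment over all miRNAs.

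Ordered by their means, the 6 groups formed no steps. 59Q at 36 h was the lowest group for miR-15a, miR-16, miR-195 and miR-497, and 16Q at 24 h the lowest for miR-15b. The highest was 59Q at 24 h for miR-16, miR-195 and miR-497, 16Q at 36 h for miR-15a and 59Q at 60 h for miR-15b. For every member, each neighbouring pair of groups in this order overlapped. The group means spanned 0.42 for miR-15a, 0.81 for both miR-15b and miR-195, 1.14 for miR-16 and 1.17 for miR-497. The median SD within a group was 0.27 for miR-15a, 0.61 for miR-15b, 0.48 for miR-16, 0.48 for miR-195 and 0.31 for miR-497, so that of the 5 it was for miR-497 that the span stood largest beside the spread.

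A ratio of 2 members on the same array does not depend on the scaling between arrays, unless a probe is at the lower limit set on the signal. The probes of miR-15b and miR-16 were at that limit on 0 arrays. The level of such a ratio reflects the probes, and only its differences between groups are read. The log2 ratio of miR-15b to miR-16, which share the chromosome 3 locus, was -0.40, -0.82 and -0.73 in 59Q cells at 36 h, against -1.60, -1.70 and -1.52 in 16Q cells. The groups were far apart, with means of -0.65 ± 0.22 and -1.61 ± 0.09 (SD, n = 3 each) and a difference of 0.96. The same held for 58.2% of the 225 ratios of other miRNAs to miR-16 at 36 h, so the gap is no property of miR-15b alone.

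In 16Q cells the ratio of miR-15b to miR-16 averaged -1.43 ± 0.18 at 24 h, -1.61 ± 0.09 at 36 h and -0.56 ± 0.26 at 60 h. In 59Q cells it averaged -1.31 ± 0.24 at 24 h, -0.65 ± 0.22 at 36 h and -0.70 ± 0.15 at 60 h. Both constructs thus had a higher ratio at 60 h than at 24 h with no overlap, by 0.61 in 59Q cells and 0.87 in 16Q cells, beside 9.33% and 34.7% of all ratios to miR-16. At 36 h the 59Q arrays were already near the 60 h level, 0.66 above 24 h (beside 37.3% of all ratios), while the 16Q arrays overlapped those of 24 h. These separations were also present with quantile normalization and in the deposited table. With normexp correction they were present but smaller, at 0.72 in place of 0.96 between the constructs at 36 h and at 0.56 in place of 0.87 between 60 h and 24 h in 16Q cells. At 24 h and at 60 h the constructs overlapped, with differences of 0.12 and -0.15. No test was made of these ratios, and the 36 h arrays of 16Q lay mostly on the first slide and those of 59Q on the second, whose part in the result was not tested. The 24 h and 60 h arrays never shared a slide, so in these ratios time and slide cannot be told apart.

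The ratio of miR-15a to miR-16, partners on chromosome 14, was also wholly higher in 59Q cells at 36 h, at -1.86 ± 0.29 against -2.56 ± 0.20 in 16Q cells. As for miR-15b, this stands beside 58.2% of all ratios to miR-16. The ratio of miR-195 to miR-497, partners on chromosome 11, overlapped between the constructs at each time, with differences of 0.35 at 24 h, 0.35 at 36 h and 0.04 at 60 h. A probe of miR-15a was at the lower limit on 1 array, those of miR-195 on 1 and 5, and 1 used probe of miR-497 on 2. How these ratios vary with the processing was not tested.

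**Figure D5:**
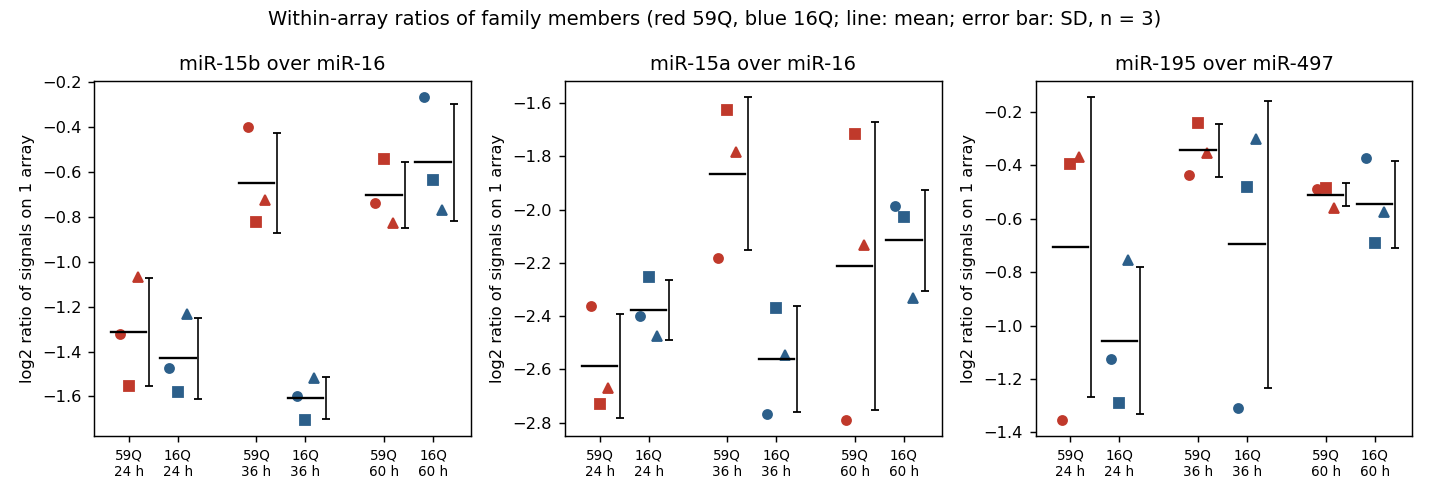
Log2 ratio of 2 members' signals on the same array (vertical axis) by construct and time (red, 59Q, left of blue, 16Q), with the mean and SD (n = 3), for miR-15b over miR-16, miR-15a over miR-16 and miR-195 over miR-497. For miR-15b over miR-16 the 59Q arrays at 36 h lie between -0.40 and -0.82, above the 16Q arrays at 36 h and near both 60 h groups.

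Over the 18 arrays the members varied together. Pearson correlations between members ran from 0.50 for miR-15b and miR-497 to 0.89 for miR-16 and miR-195. Taken as deviations from the group means, they ran from 0.56 for miR-15a and miR-497 to 0.95 for miR-15b and miR-16. These correlations describe 18 arrays that share a scaling step and in part a slide. The miRNAs most like the family mean were miR-425 (r = 0.962, Spearman rho 0.928), the array entry shared by miR-465a-3p, miR-465b-3p and miR-465c-3p (r = 0.954), miR-883b-3p (r = 0.944), miR-883a-3p (r = 0.941) and miR-26a (r = 0.939). Without the 2 arrays farthest from the median, 59Q replicate 1 at 60 h and 59Q replicate 2 at 36 h, their r lay between 0.899 and 0.931. The median r of the 221 miRNAs compared was 0.222. miR-107 ranked 10 with r = 0.929 and miR-103 ranked 12 with r = 0.917.

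miR-322, which has the same seed as the 5 members and lies on the X chromosome, had r = 0.03 with the family mean and rank 125 of 221. That r over all arrays includes its own difference between the constructs. Within groups the picture was mixed. At 24 h miR-322 and the family mean had the same order of replicates in both constructs. In 59Q cells at 60 h, replicate 1 was the lowest for miR-322 and the highest for the family mean. miR-322 was 0.77, 1.07 and 1.22 in 59Q cells at 24 h, against -2.31, -2.16 and -1.53 in 16Q cells. Its difference between 59Q and 16Q cells was 3.02 at 24 h, 2.76 at 36 h and 1.60 at 60 h, and it was the 1 miRNA of 226 that passed the test at each time (adjusted p = 0.00872 at 60 h, limma). The values of miR-322 rest on 1 of its 2 probes, because the filter on dim probes left out the other. That other probe was at the lower limit of the signal on 15 arrays and differed by 0.11, 0 and 0.84 at 24, 36 and 60 h. miR-322 stayed above 0 at all 3 times under every alternative. Its call was lost at each time without the filter, where both probes were averaged and its difference at 24 h was 1.56. Its difference at 60 h did not pass after normexp correction (0.81), in the deposited table (1.37) or when the 6 arrays compared were fitted alone. Nor did it pass when any of 3 arrays at 60 h was left out, namely replicates 1 and 2 of 16Q and replicate 2 of 59Q, with adjusted p of 0.0505 to 0.0774 (limma). miR-503, its neighbour on the X chromosome, differed by 0.23, -0.05 and 0.11 at the same times and did not pass. miR-103 and miR-107, with the shifted seed, differed by -0.86 and -0.73 at 36 h (adjusted p = 0.263 and 0.266, limma), with all 59Q arrays below all 16Q arrays. The same separation held for 22.6% of all 226 miRNAs.

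Other miRNAs with known roles near those of the family gave the following at 36 h in 59Q against 16Q cells. Of 17 miRNAs linked to arrest in the G1 phase, 10 could be tested and 0 were called, with a median of -0.30; the 2 with the largest test statistics were let-7i at -1.33 and miR-26a at -0.70. miR-34a, miR-34b-5p, miR-34c and the 3 miR-449 entries, which act on the same cell-cycle genes, were well above background on 0 arrays. Of 9 miRNAs linked to BCL2, 4 could be tested and 0 were called, with a median of -0.42, miR-181b at -0.69 and miR-181a at -0.52. Of 13 miRNAs of clusters that promote proliferation, 11 could be tested and 0 were called, with a median of -0.87, miR-106b at -1.08 and miR-93 at -0.96. All tested members of these 3 lists had a lower mean in 59Q cells, as did the 5 family members, while 35.8% of all 226 miRNAs had a higher one. These signs rest on the scaling: without it 83.2% of all miRNAs had a higher mean in 59Q cells, as did 8 of 10, 3 of 4 and 4 of 11 members of the 3 lists and 2 of 5 family members. Of the blood cell markers 1 of 7 could be tested and of markers of other tissues 2 of 10, with 0 called at 36 h.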

How the data were processed

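In all, 18 1-colour arrays were analysed. The authors deposited, per the file headers, spot intensity values from Agilent Feature Extraction 9.5.1.1 (background-subtracted processed signal), and a log2 table that equals the log2 net signal of the same spots without scaling between arrays, whose deposited array medians were 4.98 to 5.90; it served as an alternative. The processed signal was averaged over unflagged spots of a probe, scaled to the 75th percentile of the 290 probes that every array had well above background (flagged so on at least 50% of spots), floored at 0.0581 and log2-transformed. Probes well above background in all 3 replicates of 1 or more groups were averaged per miRNA, leaving 557 probes and 226 miRNAs; no mouse spot was saturated. Names are those of the array design. Tests used limma 3.58.1 in R 4.3.3, with 1 fit of 6 group means over 18 arrays and Benjamini-Hochberg adjustment over 226 miRNAs at 0.05, and exact permutation for single members; the steps were tested on simulated data. The members and lists were chosen with earlier results of these data known. Named were all members, their passenger strands, related-seed miRNAs, the 2 largest test statistics of each other list in a comparison described, and the 5 miRNAs most correlated with the family. Samples were not paired by replicate number, because the labels do not say that a number is shared between groups. With 3 arrays a group, the check of these numbers given below cannot settle whether they pair samples. Alternatives were background correction, normalization, the deposited table, filter, floor, brightest probe, arrays in the fit, replicate or slide as a block, each array left out and, chosen after seeing the data, 4 arrays left out.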

Additional observations from a re-analysis of the deposited data

How the results depend on the processing

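Of 1340 values of members under the alternatives, 1180 kept their side of the threshold with no change of sign. A further 149 changed sign (0 of them with an adjusted p under 0.05) and 11 passed the threshold. Differences of exactly 0, as for miR-195 with a higher floor, have no direction and are counted among the 1180. Many of the 1340 values could not change sign. Leaving out an array outside a comparison of groups leaves its difference the same. So does the replicate number as a block or a fit of only the arrays compared. The tally therefore overstates how stable the signs are. Differences of the family are mostly smaller than the spread between arrays, and their signs depend on the processing. Precision is limited by 3 arrays a group. Without scaling the median of all miRNAs moved by -0.60 at 24 h, 0.66 at 36 h and 0.46 at 60 h for 59Q against 16Q. The ratio of miR-15b to miR-16 for 36 h against 24 h in 16Q cells was -0.37 without the 4 arrays, against -0.18. The replicate number as a block changed no call of a member and gave 68 in place of 80 for 60 h against 24 h in 16Q cells; 45 pairs of arrays with the same number correlated from -0.81 to 0.84 and 7 of 18 arrays correlated best with their own number. The counts below are of miRNAs with an adjusted p of 0.05 or less (limma), the values are log2 differences, and for the dependence on time the value is the 60 h minus the 24 h difference. The cause of these changes was not tested, except that a floor 4 times higher put every 24 and 36 h value of miR-195 at the floor, with differences of 0.

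Normexp background correction gave a count of 0 for 59Q against 16Q at 60 h, 0 for 60 h against 24 h in 59Q cells and 3 for 60 h against 24 h in 16Q cells. With normexp correction signs changed for miR-497 (-0.0132) in 59Q against 16Q at 24 h, for miR-15a (-0.10), miR-195 (-0.20) and miR-497 (-0.13) in 59Q against 16Q at 60 h and for miR-195 (-0.23) in the average over the times. Signs changed there too for miR-195 (0.0858) in 60 h against 24 h in 16Q cells and for miR-497 (-0.12) in the dependence on time. With quantile normalization signs changed for miR-497 (-0.10) in 59Q against 16Q at 24 h, for miR-195 (-0.00844) in the average over the times and for miR-15a (-0.0646) in 60 h against 24 h in 16Q cells. Signs changed there too for miR-15a (0.0105) and miR-195 (0.25) in the dependence on time. With the percentile over all probes signs changed for miR-497 (-0.0703) in 59Q against 16Q at 24 h, for miR-15a (-0.026) and miR-15b (-0.0751) in 59Q against 16Q at 60 h and for miR-195 (-0.0244) in the average over the times. Leaving out the scaling gave a count of 1 for 60 h against 24 h in 59Q cells and 41 for 60 h against 24 h in 16Q cells. Without scaling signs changed for miR-15a (-0.40), miR-15b (-0.11), miR-16 (-0.22), miR-195 (-0.15) and miR-497 (-0.66) in 59Q against 16Q at 24 h, for miR-15a (0.36) and miR-15b (0.63) in 59Q against 16Q at 36 h and for miR-15a (0.21) and miR-16 (0.0742) in the average over the times. Signs changed there too for miR-15a (0.21) and miR-15b (0.18) in 36 h against 24 h in 59Q cells, for miR-15a (0.29) and miR-195 (0.0471) in 60 h against 24 h in 59Q cells and for miR-15a (-0.56), miR-15b (-0.56), miR-16 (-0.38) and miR-195 (-0.55) in 36 h against 24 h in 16Q cells. Likewise they changed for miR-15a (-0.78) and miR-15b (-0.19) in 60 h against 24 h in 16Q cells and for miR-15a (1.07), miR-15b (0.74), miR-16 (0.999) and miR-195 (0.82) in the dependence on time. The deposited log2 table gave a count of 0 for 59Q against 16Q at 60 h and 5 for 60 h against 24 h in 16Q cells. In the deposited table signs changed for miR-15a (-0.22), miR-15b (-0.0298), miR-16 (-0.16), miR-195 (-0.0122) and miR-497 (-0.33) in 59Q against 16Q at 24 h, for miR-15a (0.23) and miR-15b (0.52) in 59Q against 16Q at 36 h and for miR-15a (0.12) and miR-16 (0.0662) in the average over the times. Signs changed there too for miR-15a (0.11) and miR-15b (0.14) in 36 h against 24 h in 59Q cells, for miR-15a (0.28), miR-195 (0.29) and miR-497 (0.22) in 60 h against 24 h in 59Q cells and for miR-15a (-0.34), miR-15b (-0.41), miR-16 (-0.33) and miR-195 (-0.17) in 36 h against 24 h in 16Q cells. Likewise they changed for miR-15a (-0.29) and miR-15b (-0.0345) in 60 h against 24 h in 16Q cells and for miR-15a (0.58), miR-15b (0.52), miR-16 (0.80) and miR-195 (0.29) in the dependence on time. Testing every miRNA without a filter gave a count of 0 for 59Q against 16Q at 24 h, 0 for 59Q against 16Q at 60 h, 1 for 36 h against 24 h in 59Q cells, 1 for 36 h against 24 h in 16Q cells and 27 for 60 h against 24 h in 16Q cells. A floor 4 times higher gave a count of 2 for 59Q against 16Q at 36 h, 2 for 36 h against 24 h in 59Q cells, 1 for 36 h against 24 h in 16Q cells, 26 for 60 h against 24 h in 16Q cells and 1 for the dependence on time. With the higher floor signs changed for miR-497 (0.0423) in the average over the times, for miR-195 (0.0799) and miR-497 (0.0223) in 60 h against 24 h in 59Q cells and for miR-195 (0.0799) in the dependence on time. With the brightest probe signs changed for miR-195 (-0.0419) in the average over the times and for miR-15a (-0.0242) in 60 h against 24 h in 16Q cells. A fit of only the arrays compared gave a count of 2 for 59Q against 16Q at 36 h, 0 for 59Q against 16Q at 60 h and 0 for 60 h against 24 h in 59Q cells. Slide as a block gave a count of 49 for 59Q against 16Q at 60 h, 2 for the average over the times, 1 for 60 h against 24 h in 59Q cells, 0 for 60 h against 24 h in 16Q cells and 55 for the dependence on time. With slide as a block signs changed for miR-15a (0.0379), miR-16 (0.10) and miR-497 (0.18) in the average over the times, for miR-15a (0.0397), miR-16 (0.26), miR-195 (0.49) and miR-497 (0.87) in 60 h against 24 h in 59Q cells and for miR-15a (-0.0548) in 60 h against 24 h in 16Q cells. Signs changed there too for miR-15a (0.0945), miR-15b (0.26), miR-16 (0.56) and miR-195 (1.06) in the dependence on time. With slide as a block, the 59Q level at 60 h rests on replicate 1 alone in each of these. Leaving out the 4 arrays that stand apart gave a count of 13 for 36 h against 24 h in 59Q cells, 43 for 60 h against 24 h in 59Q cells and 4 for 60 h against 24 h in 16Q cells. Without these 4 arrays signs changed for miR-15a (-0.34), miR-15b (-0.32), miR-16 (-0.23), miR-195 (-0.20) and miR-497 (-0.25) in 59Q against 16Q at 24 h, for miR-15b (0.21) in 59Q against 16Q at 36 h and for miR-15a (-0.00185), miR-15b (-0.32), miR-16 (-0.19), miR-195 (-0.27) and miR-497 (-0.30) in 59Q against 16Q at 60 h. Signs changed there too for miR-15b (-0.14) and miR-195 (-0.32) in the average over the times, for miR-15b (-0.19) in 60 h against 24 h in 59Q cells and for miR-15a (-0.34), miR-15b (-0.63), miR-16 (-0.26) and miR-195 (-0.39) in 36 h against 24 h in 16Q cells. Likewise they changed for miR-15a (-0.50) and miR-15b (-0.18) in 60 h against 24 h in 16Q cells and for miR-15a (0.34), miR-16 (0.0403) and miR-497 (-0.0506) in the dependence on time. With each array left out in turn, the count ranged over 1 to 50 for 59Q against 16Q at 24 h, 1 to 10 for 59Q against 16Q at 36 h, 0 to 1 for 59Q against 16Q at 60 h, 0 to 63 for 36 h against 24 h in 59Q cells, 1 to 18 for 60 h against 24 h in 59Q cells, 0 to 8 for 36 h against 24 h in 16Q cells, 6 to 99 for 60 h against 24 h in 16Q cells and 0 to 30 for the dependence on time. The members whose sign changed when 1 array was left out ranged for 59Q against 16Q at 24 h over miR-497 -0.13 to 0.19, and for 59Q against 16Q at 36 h over miR-15b -0.58 to 0.21. They also ranged for 59Q against 16Q at 60 h over miR-15a -0.00185 to 0.37, miR-15b -0.32 to 0.42, miR-16 -0.19 to 0.51, miR-195 -0.27 to 0.63 and miR-497 -0.30 to 0.57, and for the average over the times over miR-15a -0.0931 to 0.0982 and miR-195 -0.17 to 0.14. They also ranged for 60 h against 24 h in 59Q cells over miR-15a -0.15 to 0.22, miR-15b -0.19 to 0.56 and miR-195 -0.75 to 0.15, and for 60 h against 24 h in 16Q cells over miR-15a -0.14 to 0.43, miR-16 -0.39 to 0.22 and miR-195 -0.29 to 0.22. They also ranged for the dependence on time over miR-15a -0.46 to 0.11, miR-16 -0.68 to 0.0207, miR-195 -0.67 to 0.23 and miR-497 -0.35 to 0.52. The calls gained were miR-497 at 60 h (1.39) and for the dependence on time (1.35) with slide as a block, miR-16 and miR-497 at 36 h against 24 h in 59Q cells without 59Q replicate 1 at 36 h or at 60 h, miR-497 at 36 h without 59Q replicate 1 at 60 h, miR-15b at 60 h against 24 h in 16Q cells and miR-16 for the dependence on time without 16Q replicate 3 at 24 h, and miR-497 at 36 h and 60 h against 24 h in 59Q cells without the 4 arrays.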
